A study of Oryza sativa with 6 samples.

Results

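GW2, WTG1, OsUBP15 and HGW are 4 rice genes of the ubiquitin pathway for which changes in grain width or grain weight are known. They were taken by locus identifier as 4 of the 46732 loci in a table of RPKM values. RPKM is reads divided by the length of the gene model and by the library total. The list was set by identifier and not by a cutoff on values, but earlier results of these data were known when it was chosen. The identifiers are LOC_Os02g14720 for GW2, LOC_Os08g42540 for WTG1, LOC_Os02g14730 for OsUBP15 (also LG1) and LOC_Os06g06530 for HGW. These names come with the list of loci. The table itself carries no names.

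Ubiquitin is a small protein that is joined to other proteins by a chain of enzymes ending in a ubiquitin ligase, and often marks them for breakdown by the proteasome. Deubiquitinases take it off again, and proteins with a ubiquitin-associated (UBA) domain can bind it. In rice, this balance bears on how large the spikelet hull grows, and the hull sets the space in which the grain fills. GW2 is a RING-type ligase that restrains grain width: loss of its function gives wider, heavier grains. WTG1 is a deubiquitinase of the OTU class, and its loss gives wide and thick grains. OsUBP15 is a deubiquitinase of the ubiquitin-specific protease class that promotes grain size, and HGW is a UBA-domain protein whose mutants head late and bear lighter grains.

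The RNA came from young panicles 8 to 10 cm long of a pair of near-isogenic lines of Oryza sativa, which carry mostly the same genome. NIL-qigl1HD385 and NIL-qIGL1NIP are named for the HD385 and NIP forms of qIGL1, a grain length locus, and each had 3 libraries. The labels give the genotype of both as wild type, and do not say which chromosome segments differ, whether panicles were pooled or whether libraries of a line came from separate plants. The p-values therefore speak of variation among these libraries only, and that may be technical. The comparison asks which genes differ in expression between the lines. A whole panicle mixes cell types, so fewer cells of a type and less RNA per cell cannot be told apart. The tissue label was not checked against marker genes, because identifiers are not paired with names in the sources used here.

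Library totals, recovered from the RPKM values, lay between 43536754 and 52466060 reads. The 4 genes were well covered, with 422 to 4349 reads per gene and library. NIL-qIGL1NIP replicate 3 had the smallest total, and its tested loci sat at a median of -0.12 on the log2 scale against the mean of the other 5 libraries. In the other 5 libraries the same median lay between -0.07 and 0.05. This library recurs in the values below.

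All 4 genes were expressed in every library, at levels that kept much the same order. Over the 6 libraries, WTG1 ranged from 48.3 to 57.5 RPKM, OsUBP15 from 21.6 to 30.0 RPKM, HGW from 9.03 to 14.0 RPKM and GW2 from 9.60 to 10.8 RPKM. The ranges of WTG1 and OsUBP15 overlapped neither each other nor those below. HGW and GW2 overlapped: HGW was the higher in 5 libraries and GW2 in NIL-qIGL1NIP replicate 3, so their order does not hold beyond the spread. RPKM is per length, so levels can be compared between genes. Among the 23181 loci with a mean of at least 0.5 RPKM, which were the ones tested, WTG1 stood at the 90.9th percentile of mean level, OsUBP15 at the 82.2nd, HGW at the 66.3rd and GW2 at the 61.1st.

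**Figure D1:**
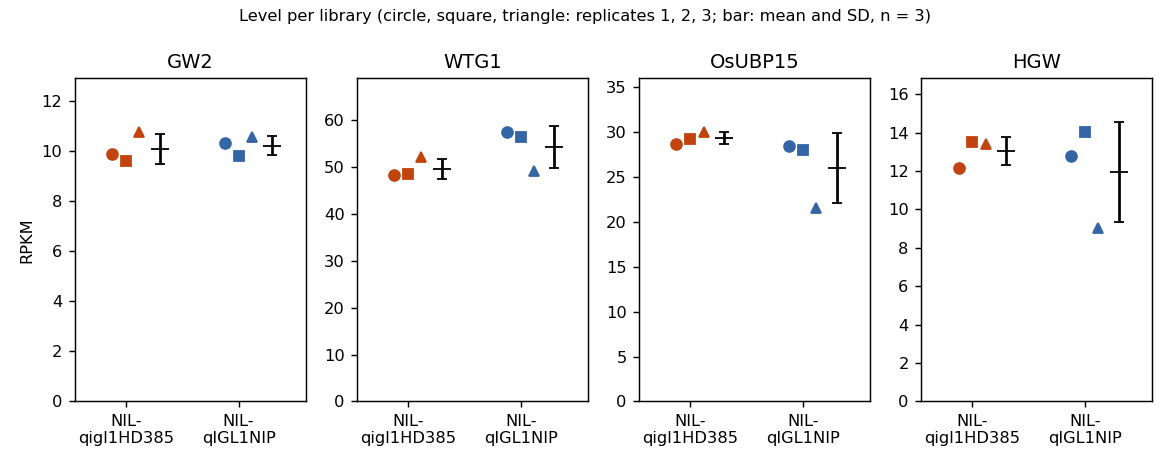
RPKM of the 4 genes in each library, with a panel per gene and the y axis from 0. Points are libraries, with NIL-qigl1HD385 on the left and NIL-qIGL1NIP on the right, and bars give the mean and SD (n = 3). GW2 lies between 9.60 and 10.8 RPKM in all libraries, and the lowest points of OsUBP15 (21.6 RPKM) and HGW (9.03 RPKM) both belong to NIL-qIGL1NIP replicate 3.

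No change between the lines passed the test for any of the 4 genes. Changes were tested with limma on log2(RPKM + 0.5) over all 23181 loci, and calls were made at a p under 0.05 after Benjamini-Hochberg adjustment. Over all tested loci, 0.733% were called (170 loci, with 87 rises and 83 falls in NIL-qigl1HD385), so a count of 0 among 4 genes is near the background. At an unadjusted limma p under 0.05, 0 of the 4 passed as well, against 17.0% of the tested loci, and limma voom on recovered reads also called 0 of the 4. OsUBP15 and HGW had positive log2 changes and GW2 and WTG1 negative ones. The median size of the change was 0.13 on the log2 scale for the 4 genes and 0.20 for all tested loci. The smallest change among called loci was 0.57 in size.

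**Figure D2:**
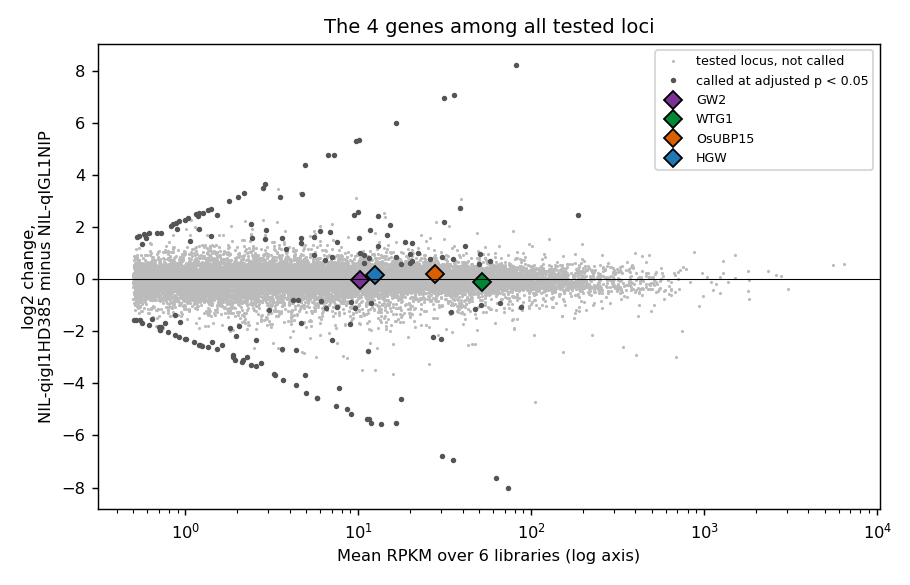
Log2 change between the lines (NIL-qigl1HD385 minus NIL-qIGL1NIP) against mean RPKM on a log axis, for the 23181 tested loci. Small gray points were not called, dark points were called at an adjusted p under 0.05 in limma, and diamonds are the 4 genes. The diamonds lie between -0.13 and 0.18, inside the band of uncalled loci.

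GW2, the ligase, had close to the same level in both lines. It had 9.90, 9.60 and 10.8 RPKM in NIL-qigl1HD385 replicates 1, 2 and 3, against 10.3, 9.80 and 10.6 RPKM in NIL-qIGL1NIP. The values interleave, and the highest and the lowest of the 6 both belong to NIL-qigl1HD385. The means were 10.1 ± 0.605 RPKM in NIL-qigl1HD385, against 10.2 ± 0.391 RPKM in NIL-qIGL1NIP (SD, n = 3 each). The log2 change was -0.02 with a standard error of 0.09 (limma adjusted p = 0.932; exact two-sided permutation p = 0.90). Its 95% interval, -0.25 to 0.20, leaves room for a level in NIL-qigl1HD385 of 0.843 to 1.15 times that in NIL-qIGL1NIP. In size, 5.95% of tested loci changed less. GW2 was also steady within lines: its pooled SD of 0.07 on the log2 scale was lower than in all but 6.18% of the 7493 loci within 2-fold of its level. The spread was 5.99% of the mean in NIL-qigl1HD385 and 3.82% in NIL-qIGL1NIP, where counting read pairs alone would give 4.20%.

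OsUBP15, the protease-type deubiquitinase whose locus number follows that of GW2 on chromosome 2, had the largest change of the 4. Its levels were 28.6, 29.3 and 30.0 RPKM in NIL-qigl1HD385 replicates 1, 2 and 3, and 28.4, 28.03 and 21.6 RPKM in NIL-qIGL1NIP. All 3 values of NIL-qigl1HD385 lay above those of NIL-qIGL1NIP, by a margin of 28.6 against 28.4 RPKM at the closest. Such a separation in this direction held for 16.2% of the tested loci, and one in either direction for 26.5%. Mean levels were 29.3 ± 0.670 RPKM in NIL-qigl1HD385, against 26.0 ± 3.85 RPKM in NIL-qIGL1NIP (SD, n = 3 each), with a log2 change of 0.18 and a standard error of 0.13 (limma adjusted p = 0.502). The exact two-sided permutation p was 0.10, the smallest that 3 against 3 libraries can give. The 95% interval ran from -0.12 to 0.48, or 0.919 to 1.40 times the NIL-qIGL1NIP level.

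The size of that difference depended on NIL-qIGL1NIP replicate 3. Without it, the log2 change of OsUBP15 was 0.05 with a standard error of 0.07 (limma adjusted p = 0.713), and the mean of the other two NIL-qIGL1NIP libraries was 28.2 RPKM. The SD of the 3 NIL-qigl1HD385 libraries was 2.29% of their mean, against 2.31% from counting read pairs, and that of the NIL-qIGL1NIP libraries was 14.8%. What set the level in that library apart was not tested.

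WTG1, the OTU deubiquitinase, was the most abundant of the 4 and had the lower mean in NIL-qigl1HD385. Its levels were 48.3, 48.7 and 52.2 RPKM in NIL-qigl1HD385 replicates 1, 2 and 3, against 57.5, 56.4 and 49.2 RPKM in NIL-qIGL1NIP. The lines overlap through 1 library on each side: replicate 3 is the highest of NIL-qigl1HD385 and the lowest of NIL-qIGL1NIP. The mean was 49.7 ± 2.14 RPKM in NIL-qigl1HD385, against 54.4 ± 4.48 RPKM in NIL-qIGL1NIP (SD, n = 3 each). The spread was 4.3% of the mean in NIL-qigl1HD385 and 8.25% in NIL-qIGL1NIP, both above the 2.37% from counting read pairs. The log2 change was -0.13 with a standard error of 0.10 (limma adjusted p = 0.544; exact two-sided permutation p = 0.20), and its 95% interval ran from -0.36 to 0.11, or 0.780 to 1.08 times the NIL-qIGL1NIP level.

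For WTG1, leaving out NIL-qIGL1NIP replicate 3 moved the difference the other way, to a larger one. The log2 change was then -0.19 with a standard error of 0.07 and a 95% interval of -0.39 to -0.004. The lines no longer overlapped, as was so for 39.9% of the tested loci in the same fit. The unadjusted limma p was 0.0467, in a fit where 15.5% of the tested loci had one under 0.05, and the limma adjusted p was 0.318. WTG1 was therefore not called with or without this library. Of the 6 fits with 1 library left out, the one without NIL-qIGL1NIP replicate 3 gave the largest change. In the others the log2 change of WTG1 lay between -0.16 and -0.08.

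HGW, the UBA-domain protein, had the fewest reads and the widest spread of the 4. Its levels were 12.2, 13.5 and 13.4 RPKM in NIL-qigl1HD385 replicates 1, 2 and 3, and 12.8, 14.0 and 9.03 RPKM in NIL-qIGL1NIP. The lines overlap fully, since NIL-qIGL1NIP holds both the highest and the lowest value. Mean levels were 13.0 ± 0.742 RPKM in NIL-qigl1HD385, against 11.9 ± 2.60 RPKM in NIL-qIGL1NIP (SD, n = 3 each). The log2 change of 0.14 had a standard error of 0.17 (limma adjusted p = 0.703; exact two-sided permutation p = 0.70). The 95% interval of -0.27 to 0.55, or 0.831 to 1.47 times the NIL-qIGL1NIP level, was the widest of the 4. Without NIL-qIGL1NIP replicate 3 the log2 change turned to -0.04, with a standard error of 0.09 (limma adjusted p = 0.848). The spread was 5.69% of the mean in NIL-qigl1HD385, against 5.61% from counting read pairs, and 21.8% in NIL-qIGL1NIP.

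**Figure D3:**
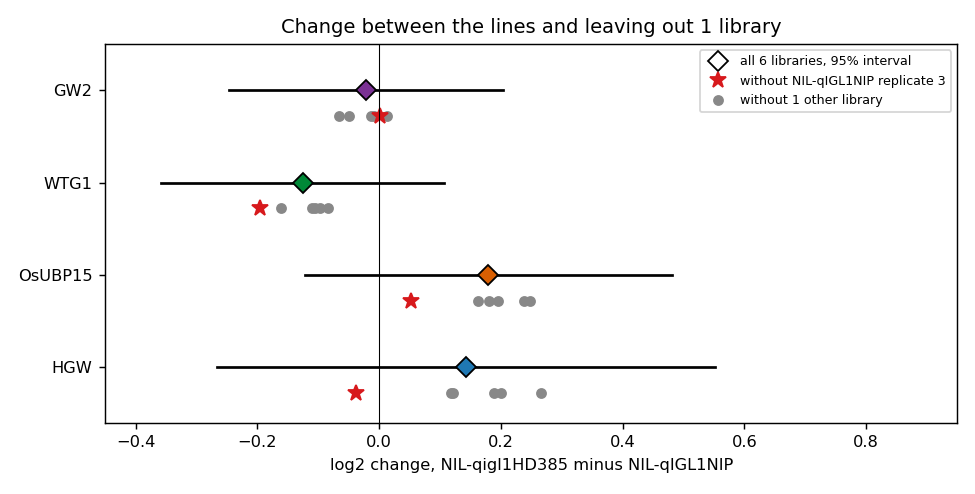
Log2 change of each gene, NIL-qigl1HD385 minus NIL-qIGL1NIP. Diamonds and lines give the fit on all 6 libraries with its 95% interval, stars the fit without NIL-qIGL1NIP replicate 3, and gray circles the fits without 1 other library. All 4 intervals span 0, and the star lies apart from the circles for WTG1 (-0.19), OsUBP15 (0.05) and HGW (-0.04) but not for GW2 (0.001).

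OsUBP15, HGW and WTG1 each had their lowest NIL-qIGL1NIP level in replicate 3, and GW2 its highest, but of these 4 genes only OsUBP15 and HGW were below every other library there. On the log2 scale, OsUBP15 was 0.41 below the mean of the other 5 libraries there (-0.41, the 19.99th percentile of tested loci) and HGW 0.52 below it (-0.52, the 12.9th percentile). WTG1, at 49.2 RPKM there and 57.5 and 56.4 RPKM in the other two NIL-qIGL1NIP libraries, was at -0.09 (53.3rd percentile) and GW2 at 0.06 (68.6th percentile), with the median of all tested loci at -0.12. In NIL-qigl1HD385 replicate 2, whose tested loci had the second lowest median, the 4 genes were between -0.11 and 0.14. Over the 6 libraries, each gene being centred on its own mean, the profiles of OsUBP15 and HGW differed by a root mean square of 0.08 on the log2 scale. That is less than for the other 5 pairs among the 4 genes, which lay between 0.11 and 0.23. It is also less than the distance from OsUBP15 of all but 3.46% of the tested loci. OsUBP15 and HGW were at -0.34 and -0.43 from their own means in NIL-qIGL1NIP replicate 3. They lay furthest apart in NIL-qIGL1NIP replicate 2, at 0.03 and 0.17. These distances describe the 6 libraries only, and how far each rests on 1 library was not tested.

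**Figure D4:**
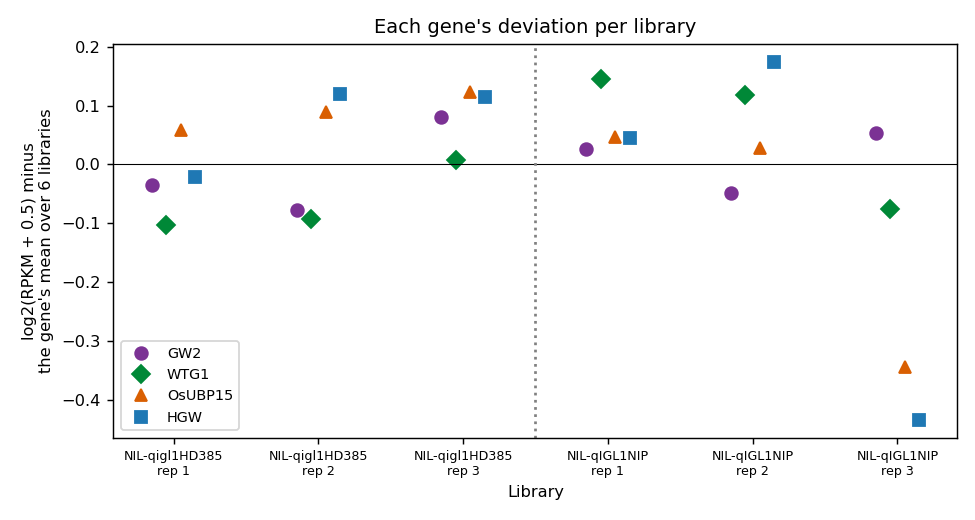
Deviation of each gene from its own mean over the 6 libraries, on the scale of log2(RPKM + 0.5), for the 3 NIL-qigl1HD385 libraries (left of the dotted line) and the 3 NIL-qIGL1NIP libraries (right). Each marker is 1 gene in 1 library. OsUBP15 and HGW are at the bottom of the plot in NIL-qIGL1NIP replicate 3, while GW2 stays within 0.1 of its mean in all 6 libraries.

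Ratios between the genes within a library do not depend on the library total. All 6 pairs were compared. The ratios to the ligase GW2 were planned, and the other 3, among OsUBP15, WTG1 and HGW, were chosen after the values had been seen. Set against GW2, the genes had ratios that overlapped between the lines. Of all tested loci set against GW2, 23.8% had no such overlap. OsUBP15 was 2.91 ± 0.132 times GW2 in NIL-qigl1HD385 and 2.55 ± 0.443 times in NIL-qIGL1NIP (exact permutation p = 0.20, adjusted 0.40), and its log2 difference of 0.21 was 0.05 without NIL-qIGL1NIP replicate 3. WTG1 was 4.93 ± 0.121 times GW2 in NIL-qigl1HD385 and 5.32 ± 0.582 times in NIL-qIGL1NIP (exact permutation p = 0.40, adjusted 0.60). The log2 difference of WTG1 to GW2, -0.10, was -0.20 without NIL-qIGL1NIP replicate 3 and -0.05 without NIL-qIGL1NIP replicate 2. HGW was 1.29 ± 0.0963 times GW2 in NIL-qigl1HD385 and 1.17 ± 0.293 times in NIL-qIGL1NIP (exact permutation p = 0.80, adjusted 0.80), and its log2 difference of 0.17 turned to -0.04 without NIL-qIGL1NIP replicate 3.

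Of the 3 ratios chosen after the values had been seen, both ratios to WTG1 separated the lines. This is a description, since 33.2% of all tested loci separated the lines when set against WTG1, and OsUBP15 did so on its own. The ratio of OsUBP15 to WTG1, the pair of deubiquitinases, was 0.593, 0.601 and 0.574 in NIL-qigl1HD385 replicates 1, 2 and 3, against 0.494, 0.497 and 0.438 in NIL-qIGL1NIP. The mean ratio was 0.589 ± 0.0137 in NIL-qigl1HD385, against 0.476 ± 0.0333 in NIL-qIGL1NIP (SD, n = 3 each), and was 1.24 times as high in NIL-qigl1HD385 (log2 difference 0.31). The exact two-sided permutation p was 0.10, and 0.30 after Benjamini-Hochberg adjustment over the 6 pairs. Since 0.10 is the smallest p that 3 against 3 libraries can give, no ratio could pass at 0.05. The test therefore cannot decide whether this ratio differs between the lines. With each library left out in turn, the log2 difference lay between 0.25 and 0.34, and it was 0.25 without NIL-qIGL1NIP replicate 3.

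The ratio of HGW to WTG1 averaged 0.262 ± 0.0132 in NIL-qigl1HD385 and 0.218 ± 0.0328 in NIL-qIGL1NIP (SD, n = 3 each), with the same exact permutation p of 0.10 and adjusted p of 0.30. The closest libraries were at 0.252 in NIL-qigl1HD385 and 0.248 in NIL-qIGL1NIP. Without NIL-qIGL1NIP replicate 3 its log2 difference was 0.16, and 0.28 with all libraries. HGW relative to OsUBP15 was 0.445 ± 0.0181 in NIL-qigl1HD385 and 0.456 ± 0.0411 in NIL-qIGL1NIP (exact permutation p = 0.80, adjusted 0.80). Its log2 difference of -0.03 had no stable sign: it was -0.09 without NIL-qIGL1NIP replicate 3 and 0.03 without NIL-qIGL1NIP replicate 2.

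Because near-isogenic lines can differ by chromosome segments, the 10 tested loci on each side of the genes were read off by locus number. None of the 60 neighbours was called in limma, where 0.733% of all tested loci were. Around GW2 and OsUBP15 on chromosome 2, between locus numbers 14190 and 14900, 9 of 20 neighbours had an unadjusted p under 0.05, where all tested loci gave 17.0%. Of these 20, 14 had a positive log2 change, where 52.9% of all tested loci did. The changes of these 20 ran from -0.74 to 0.87. Around HGW on chromosome 6 and WTG1 on chromosome 8, 5 of 20 had an unadjusted p under 0.05 in each case, and 5 and 11 of the 20 had a positive change. Voom on recovered reads called 0 of the 60 as well.

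The loci next to the genes are known here by identifier only. LOC_Os02g14710, just before GW2, had 0.645 ± 0.234 RPKM in NIL-qigl1HD385, against 1.17 ± 0.237 RPKM in the other line (SD, n = 3 each; log2 change -0.56, limma adjusted p = 0.278). LOC_Os02g14760, the next tested locus after OsUBP15, had 23.6 ± 6.81 RPKM in NIL-qigl1HD385, against 34.4 ± 4.86 RPKM in NIL-qIGL1NIP (log2 change -0.56, limma adjusted p = 0.263). Both had negative changes while the genes between them were at -0.02 and 0.18. Beside WTG1, LOC_Os08g42530 had 12.6 ± 0.537 RPKM in NIL-qigl1HD385, against 10.3 ± 0.763 RPKM in NIL-qIGL1NIP (limma adjusted p = 0.219), and LOC_Os08g42550 had 6.57 ± 1.46 RPKM in NIL-qigl1HD385, against 6.31 ± 1.06 RPKM in NIL-qIGL1NIP (limma adjusted p = 0.93). Beside HGW, LOC_Os06g06520 had 0.899 ± 0.285 RPKM in NIL-qigl1HD385, against 1.04 ± 0.189 RPKM in NIL-qIGL1NIP (limma adjusted p = 0.74), and LOC_Os06g06550 had 0.450 ± 0.124 RPKM in NIL-qigl1HD385, against 0.678 ± 0.573 RPKM in NIL-qIGL1NIP (limma adjusted p = 0.782).

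**Figure D5:**
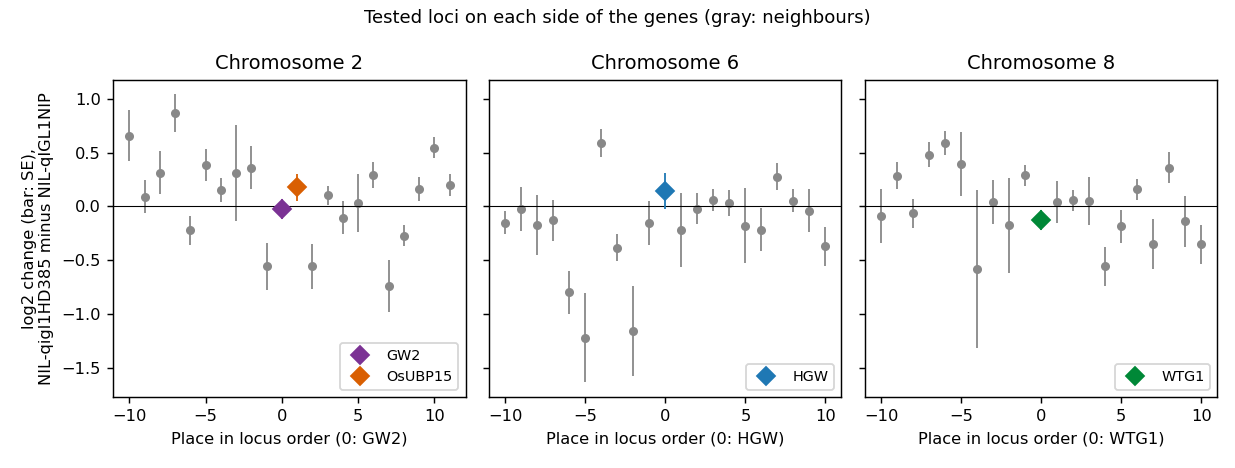
Log2 change, NIL-qigl1HD385 minus NIL-qIGL1NIP, of the genes (diamonds) and of the 10 tested loci on each side (gray) in the order of locus numbers, with bars for the standard error. GW2 and OsUBP15 share a panel. The 60 neighbours scatter on both sides of 0, from -1.22 to 0.87, and none was called.

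The nearest called locus lay 24 tested loci from OsUBP15 and 25 from GW2. It was LOC_Os02g15460, with 1.34 ± 0.322 RPKM in NIL-qigl1HD385 libraries, against 0.0394 ± 0.0405 RPKM in those of NIL-qIGL1NIP (SD, n = 3 each; log2 change 1.76, limma adjusted p = 0.0164). For HGW the nearest call was 146 tested loci away, and for WTG1 it was 687 away. Calls were sparse: 18 of 2740 tested loci on chromosome 2, 5 of 1812 on chromosome 6 and 8 of 1578 on chromosome 8. The distances count tested loci and give no length in bases. Whether they differ from those of other loci was not tested.

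Several loci followed each gene closely over the 6 libraries, as the root mean square difference of centred log2 values shows. LOC_Os06g10690 was nearest to GW2 (0.019) and LOC_Os11g31500 came next (0.025). GW2's own variation around its mean was only 0.057, so little variation in a locus already brings it near GW2. For WTG1 the nearest were LOC_Os01g55490 (0.017) and LOC_Os05g03220 (0.019). OsUBP15 was followed by LOC_Os04g57290 (0.018, against 0.157 for its own variation around its mean) and LOC_Os02g10080 (0.021). HGW, with an own variation of 0.204, was followed by LOC_Os11g09140 (0.028) and LOC_Os11g34360 (0.033). A difference under 0.05 was found for 105 loci with GW2, 80 with WTG1, 148 with OsUBP15 and 27 with HGW, so the nearest loci are not set apart from many others.

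Other rice genes of ubiquitin ligation or removal with known roles in panicle or plant form, and substrates of GW2, could not be counted. None of 12 further gene names was paired with a row of the table by the RefSeq gene table (assembly ASM3414082v1), which holds no identifier of the kind used here. It has the name GW2 on chromosome 2, as in the locus identifier, and the name LG1 on chromosome 4, whereas the OsUBP15 locus is on chromosome 2; that entry was not used for OsUBP15.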

How the data were processed

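The authors deposited 1 RPKM value per locus and library. Trimmomatic 0.36, featureCounts, Subread 1.5.1 and edgeR 3.12.1 are named without roles, per the submitters' processing notes. The aligner, the build and any strand setting are not stated by the notes used here. If strand was not used, overlapping loci share reads that cannot be separated. Libraries were stranded mRNA read as pairs, per the labels' protocols.

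Totals, lengths and whole reads were recovered with Python 3.11.15 from the steps of the RPKM values. A length of 60 to 17000 bases fitted, within 0.003 of a whole number, for 100.0% of loci above 0. The shortest fitting length was taken, so at loci with few reads the length and reads can be too small. Recovered reads came to between 97.9% and 98.2% of the library totals. The simulated check of lengths and reads left out loci with few reads, and the voom fit shares this limit. Of 1274 values of 1 to 10 reads at loci with many reads elsewhere, 76.5% were even, as counting both mates of a pair would give, so counting errors were computed on reads divided by 2.

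limma 3.58.1 in R 4.3.3 was fitted on log2(RPKM + 0.5) with a variance trend, without covariates. This scale makes the fold changes of low loci smaller than they are. Both recovery and fit were tested on simulated data. Named loci besides the 4 genes were the nearest tested neighbours and the 2 loci nearest in profile per gene. LOC_Os02g15460 and 2 neighbours of HGW were named after their values were seen. The genes, alternatives and the pair of libraries left out together were chosen with earlier results of these data known.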

Additional observations from a re-analysis of the deposited data

How the results depend on the processing

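None of the 4 genes was called in any of the 17 alternatives, and neither was any of the 60 neighbours where tested. With a mean RPKM of at least 2, the neighbours below that level were not tested. For the 4 genes, two-sided limma adjusted p stayed between 0.318 and 0.997 over the 17 alternatives. WTG1 kept a negative change (-0.19 to -0.08) and OsUBP15 a positive one (0.05 to 0.25) throughout. GW2 changed sign when NIL-qigl1HD385 replicate 2 was left out (0.0125), when NIL-qIGL1NIP replicate 3 was (0.0011) and when both were (0.0344), with -0.0662 to 0.0125 over single libraries left out. HGW changed sign without NIL-qIGL1NIP replicate 3 (-0.0386) and without both (-0.0632), with -0.0386 to 0.2654 over single libraries left out; its ratio to GW2 turned to a log2 difference of -0.0412 without that replicate, with -0.0412 to 0.3302 over single libraries, while those of OsUBP15 (0.05 to 0.30) and WTG1 (-0.20 to -0.05) to GW2 kept their sign but not their size. The cause was not tested.

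The number of called loci over the table was 94 with a mean RPKM of at least 2, 46 with the replicate number as a block, 93 without both libraries named above and 84 to 112 with 1 library left out, against 170; the other 8 alternatives stayed within 1.5 times. Fewer loci or fewer libraries enter 3 of these kinds of fit. The block changed no call among the 4 genes (log2 changes as without it). Nothing in the labels pairs libraries by number. Across loci, deviations from the line mean correlated at -0.28, -0.25 and -0.41 for same-numbered libraries. For different-numbered libraries the correlations lay between -0.08 and 0.40. Deviations within a line cancel out, so these correlations constrain each other and cannot be read singly. A ratio test with 3 libraries against 3 cannot give p under 0.10, so its side of the threshold says nothing about stability.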

Other observations

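A pair of loci beside HGW, singled out after their values were seen, had nearly equal levels in every library. LOC_Os06g06460 had 24.3, 11.3 and 33.0 RPKM in NIL-qigl1HD385 replicates 1, 2 and 3, against 46.2, 37.5 and 69.8 RPKM in NIL-qIGL1NIP. LOC_Os06g06510 had 25.93, 11.98 and 34.0 RPKM in NIL-qigl1HD385, and 45.5, 36.8 and 72.9 RPKM in NIL-qIGL1NIP. In both, every NIL-qigl1HD385 library lay below every NIL-qIGL1NIP library. A separation of the lines in either direction held for 26.5% of the tested loci. Their log2 changes were -1.22 (SE 0.41, limma adjusted p = 0.221) and -1.16 (SE 0.42, limma adjusted p = 0.245), so neither was called. A fall of 1 or more on the log2 scale was seen in 2.36% of tested loci. Both were highest in NIL-qIGL1NIP replicate 3, the library in which HGW was lowest. Whether the pair shares reads was not tested.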
